A study of Drosophila melanogaster with 18 samples.

Results

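The 95Ca and 95Cb deletion strains of Drosophila melanogaster each lack 1 of the 5 genes for U1 snRNA, and their larval transcriptomes were compared with each other directly, without the WT in the fit. The comparison took the 3 libraries labelled 95Ca.del and the 3 labelled 95Cb.del, 6 of the 18 RNA-seq libraries of the study. It was then repeated without the library labelled 95Ca deletion, replicate 2, because that library carries reads on the gene that should be missing from it. Whole third-instar larvae (Larva L3) were used. Both strains are in the background of the WT, the isogenic strain w1118 (BDSC 5905), were made by CRISPR/Cas9 in embryos that express Cas9 from the nanos promoter, and were crossed to the WT for several generations before use. Each strain is homozygous for its deletion (95Ca.del or 95Cb.del) and keeps the other 4 U1 genes, and no agent was given to either. The 3 WT libraries serve below only as a reference level. The number of independent lines behind each strain is not given in the sources used here, so the deletion and other differences between the lines cannot be told apart. The labels give neither the hours within the third instar nor the sex of the larvae, and they do not say whether replicates came from separate cultures, so the p-values measure only the spread between these libraries.

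U1 snRNA is the RNA component of the U1 snRNP, the particle that recognises the 5′ splice site of introns by base pairing. The same particle also hinders premature cleavage and polyadenylation inside introns, and takes part in transcription by RNA polymerase II. In Drosophila U1 is encoded by a small family of nearly identical snRNA genes, and 95Ca and 95Cb encode the same canonical RNA. The comparison of both strains thus asks which larval transcripts differ between animals that lost 1 or the other of a pair of genes with the same product.

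Both genes lie on chromosome 3R, at a distance of 31434 bp. In dm6 coordinates, 95Ca (snRNA:U1:95Ca, FBgn0004185) occupies 23859467 to 23859630 on the minus strand, between CG34355 and Pli and outside both genes. 95Cb (snRNA:U1:95Cb, FBgn0004186) occupies 23827870 to 23828033 on the plus strand, inside an intron of CG34355. Each gene is 164 bp long. The deletions were directed by a pair of guide RNAs per locus, 1 upstream and 1 downstream of the gene, which are shown because they define the only intended difference between the strains. The capitals mark the 10 bases next to the PAM, the part of a guide in which mismatches are least tolerated.
95Ca upstream guide: ttacctcctaTCGACTCAGC
95Ca downstream guide: gcaaaatgttATGAACAACG
95Cb upstream guide: agtgcaatgtAGGCACTGCT
95Cb downstream guide: cgaggtagtcTCGCTAGCTT
Each guide is 20 bases long, and the 4 guides hold 10, 7, 10 and 11 bases G or C, in the order shown.

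The deleted genes were read first in every library. On 95Ca, replicates 1, 2 and 3 of the 95Ca deletion strain had 0, 5 and 0 counts, and those of the 95Cb deletion strain had 8, 1 and 2. The library labelled 95Ca deletion, replicate 2, thus had reads on the gene its label says is deleted. On 95Cb, the 95Ca deletion strain had 0, 4 and 0 counts and the 95Cb deletion strain 0, 0 and 0. A count of 0 allows up to 3 counts, which is 0.149 to 0.24 CPM in these libraries (counts per 1000000 of a library's total, counting error only). Summed over 3 libraries, 95Cb had 4 counts in the strain that keeps it, all in the library labelled 95Ca deletion, replicate 2. Scaled by library totals, that is 1.34-fold the 3 counts allowed over the other group. It leaves out the counting error on the 4 counts, so it is no lower bound. On the neighbouring copy 95Cc, 1373 bp from 95Cb, the counts were 1, 24 and 0 in the 95Ca and 8, 0 and 3 in the 95Cb deletion strain, so that replicate 2 of the 95Ca deletion strain had the most reads there too. 21D had 3, 6 and 1 against 3, 3 and 2 counts, and 82Eb 2, 0 and 0 against 0, 0 and 0. In the WT, 95Ca and 95Cb had 4 and 9 counts over 3 libraries. None of the 5 genes had enough counts for the test. Since reads of near-identical copies can be shared or discarded in counting, these values do not establish which copy was transcribed.

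No annotated gene within 20 kb of either locus was a DEG (a differentially expressed gene, defined by a log2 fold change beyond 1 in either direction at an adjusted p under 0.05). CG34355, whose intron holds 95Cb, had 959 counts over the 95Ca and 1193 over the 95Cb deletion libraries, with a log2 fold change of -0.16 ± 0.18 (SE, adjusted p = 1 from edgeR). Pli, a regulator of Toll signalling that lies 532 bp from 95Ca, had -0.33 ± 0.14 (adjusted p = 0.666). The values of CG33111 and eIF4G2 were 0.12 and -0.11, and lncRNA:CR43285 was too low to be tested. Fold changes here and below, with their standard errors after ±, are those of the 95Ca over the 95Cb deletion strain, so that a positive value means a higher level in larvae without 95Ca.

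The libraries held 12518047 to 20858245 counts. On principal components of log2 CPM of the 500 most variable genes, PC1 held 63.7% of the variance and set replicate 1 of both strains (35.3 and 36.4) apart from the other 4 libraries, which lay between -26.6 and -10.1. The strains were separated by PC2, with 22.1% of the variance. On that axis the 95Ca deletion libraries lay between 9.0 and 18.5 and the 95Cb deletion libraries between -17.2 and -13.5. The same 2 libraries stood apart in a small RNA: snRNA:7SKa, the RNA that holds the elongation factor P-TEFb inactive, was at 66.8 and 53.9 CPM in replicate 1 of the 95Ca and 95Cb deletion strains, and between 4465 and 8495 CPM in the other 4. WT replicate 2 resembled them, at 53.8 CPM against 5331 and 4668 in WT replicates 1 and 3. Several lists followed this split and are named here or where they are described, and the part of the split in their values was not tested. Alpha-amylases, odorant binding proteins and nuclear oxidative phosphorylation subunits, which held no DEG, were likewise lowest in replicate 1 of both strains and, of the WT, in replicate 2. The same held for the summed levels of heat shock proteins, Tweedle genes, and SR proteins and their kinases, which are described below.

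**Figure D1:**
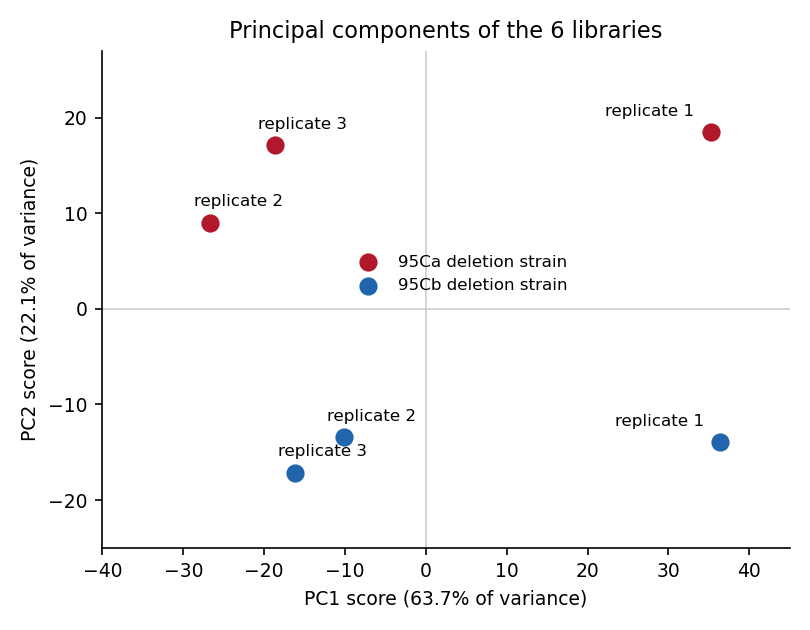
Principal component scores of the 3 libraries of the 95Ca (red) and the 3 of the 95Cb (blue) deletion strain, PC1 on the x axis and PC2 on the y axis. Replicate 1 of both strains lies at the right, at 35.3 and 36.4, and the strains separate along PC2.

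Larvae without 95Ca and larvae without 95Cb differed in few genes. Of 12422 genes tested, 70 were DEGs (0.564%), 45 of them higher in the 95Ca deletion strain (0.362%) and 25 lower (0.201%). Genes of the outer cuticle and the stress peptide gene TotA were at the high end, and the Eig71E genes, an ecdysone-induced cluster, at the low end. In whole larvae, fewer cells of a type and less RNA per cell cannot be told apart. The median log2 fold change of all genes tested was 0.03. In all 70 DEGs the 3 libraries of 1 strain lay above the 3 of the other in CPM, which was so for 13.2% of all genes tested, 3.41% with the 95Ca deletion strain higher and 9.75% with it lower. The DEGs were selected on these same libraries, so this separation adds nothing to their calls. At an unadjusted p below 0.05 stood 950 genes (7.65%). When libraries were scaled by their totals only, the median moved to -0.10 and the split of DEGs from 64.3% to 46.4% higher in the 95Ca deletion strain, with 26 higher and 30 lower.

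The number of DEGs rested on all 6 libraries. Without the library labelled 95Ca deletion, replicate 2, 32 were called, and without replicate 1 of that strain 47. No DEG was called without replicate 3 of the 95Ca deletion strain (660 genes at an unadjusted p below 0.05) or without replicate 1 of the 95Cb deletion strain (764 genes), and 3 and 9 were called without replicate 2 or 3 of the latter. DESeq2 on the 6 libraries called 216 DEGs, 135 higher and 81 lower, among them all 70. Without replicate 1 of both strains, the pair that stood apart on PC1, 35 genes were higher and 12 lower, of which 20 and 10 were among the 70.

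**Figure D2:**
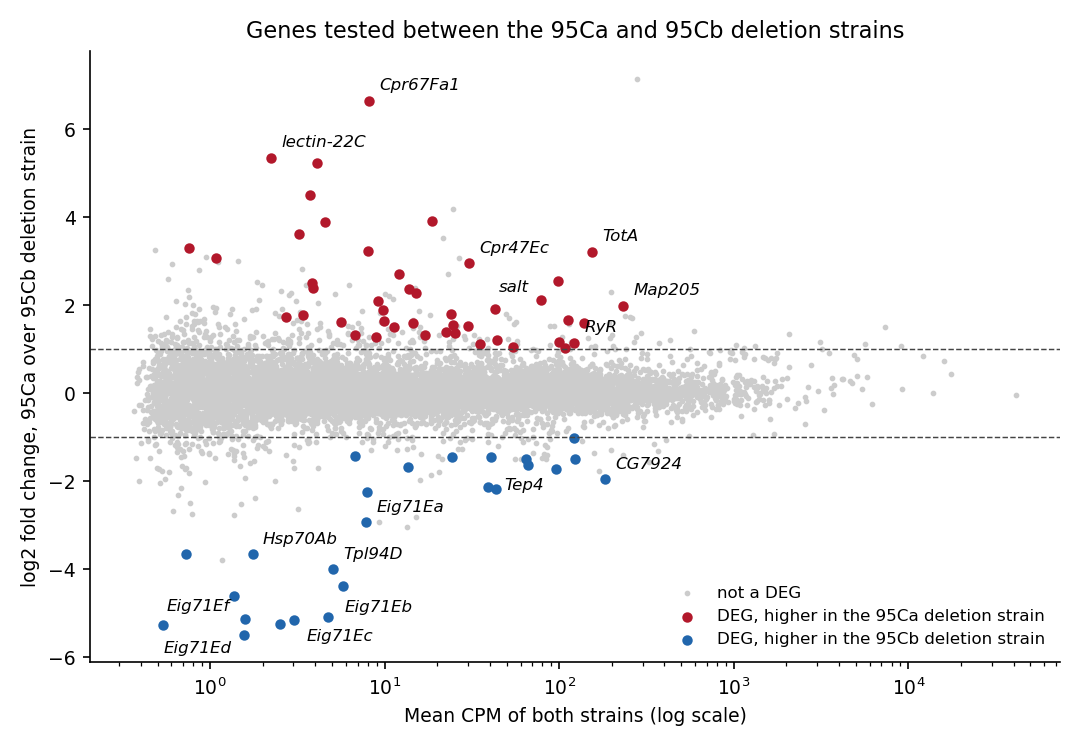
Mean CPM of both strains on a log x axis against the log2 fold change of the 95Ca over the 95Cb deletion strain for the 12422 genes tested; dashed lines mark a log2 fold change of 1 in either direction. DEGs higher in the 95Ca deletion strain (45) are red, those higher in the 95Cb deletion strain (25) blue, and 4 Eig71E genes lie below -5.

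Of the gene lists, the Cpr cuticle proteins held the most DEGs. The Cpr proteins carry a chitin-binding domain and build the exoskeleton together with chitin. Of 70 matched Cpr genes 41 were tested, and 7 were higher in the 95Ca deletion strain, against 0.362% of all genes tested, and none lower. The median log2 fold change of the 41 was 0.49, and 0.30 without the library labelled 95Ca deletion, replicate 2. Cpr67Fa1 (3L, 10889990 to 10890700) had the largest fold change of all DEGs, with 7.61, 27.4 and 13.3 CPM in replicates 1, 2 and 3 of the 95Ca and 0.397, 0.10 and 0 CPM in those of the 95Cb deletion strain. It was barely detected in the latter, and its highest level was in the library labelled 95Ca deletion, replicate 2. Its log2 fold change was 6.65 ± 0.88 (SE, adjusted p = 0.0306 from edgeR), and 5.88 (adjusted p = 0.0435) without that library. The WT lay in between, at 0.671 to 2.80 CPM. Its tandem neighbour Cpr67Fa2 had 8.10, 19.9 and 14.7 against 1.93, 1.36 and 1.90 CPM, a log2 fold change of 3.23 ± 0.45 (adjusted p = 0.0333).

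Cpr47Ec, Cpr11A and Cpr49Af varied less between replicates. Cpr47Ec (2R, 11259106 to 11259976) had 60.4, 44.1 and 55.4 CPM in the 95Ca and 10, 5.63 and 7.0 CPM in the 95Cb deletion strain, and between 96.2 and 185.7 CPM in the WT. Both strains were below the WT, and the groups did not overlap. The log2 fold change was 2.96 ± 0.22 (SE, adjusted p = 0.00841 from edgeR). Cpr11A had 21.9, 18.6 and 21.4 against 3.77, 2.61 and 3.94 CPM (log2 fold change 2.72, adjusted p = 0.00946), and Cpr49Af 45.6, 30.0 and 33.7 against 12, 12.1 and 9.99 CPM (1.80, adjusted p = 0.00946). Cpr11B and Cpr78Cc, at 1.59 and 3.90, complete the 7 together with those above. Of the 7, Cpr47Ec, Cpr11A, Cpr49Af and Cpr67Fa1 were also DEGs without the library labelled 95Ca deletion, replicate 2. DESeq2 called 12 Cpr genes higher and none lower. The 7 did not set the level of the family: summed over the 70 genes it was 2805, 4694 and 3476 CPM in the 95Ca and 5676, 3733 and 5264 CPM in the 95Cb deletion strain, which overlapped, and 13 of the 41 tested had a negative log2 fold change.

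Other cuticle genes were less clear. Of 29 matched larval and pupal cuticle genes 21 were tested and none was a DEG in edgeR, although DESeq2 called 3 higher and 18 had a positive log2 fold change. Their median was 1.38 with all 6 libraries and 0.56 without the library labelled 95Ca deletion, replicate 2. Summed over the list, the level was 8369, 17109 and 16427 CPM in the 95Ca and 5529, 12180 and 11462 CPM in the 95Cb deletion strain. Replicate 1 was lowest in both strains, and WT replicate 2 was at 3882 CPM against 28456 and 23679. Of this list, Lcp3, a main structural protein of the larval cuticle, had 2740, 2677 and 3283 against 1036, 1623 and 1096 CPM, and a log2 fold change of 1.35 (adjusted p = 0.132). Among 9 Tweedle genes tested (median 0.11) none was a DEG in edgeR and 1, TwdlX, was higher in DESeq2.

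TotA was the gene with the smallest p. Turandot peptides are secreted into the haemolymph under stress, TotA from the fat body under control of JAK-STAT signalling. TotA (3R, 20871036 to 20871700) had 337, 199.6 and 287 CPM in the 95Ca deletion strain and 38.0, 25.8 and 32.4 CPM in the 95Cb deletion strain. The mean was 275 ± 69.6 against 32.1 ± 6.13 CPM (SD, n = 3), with no overlap. The WT, at 235.5 to 552 CPM, overlapped with the 95Ca deletion strain and reached above it. The log2 fold change was 3.22 ± 0.21 (SE, adjusted p = 0.00841 from edgeR) and the adjusted p 0.0103 without the library labelled 95Ca deletion, replicate 2. Leaving out each library in turn gave adjusted p between 0.00563 and 0.051. TotC, the other Turandot gene tested of 8 matched, had about 1 CPM in both strains (log2 fold change -0.41, adjusted p = 1).

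**Figure D3:**
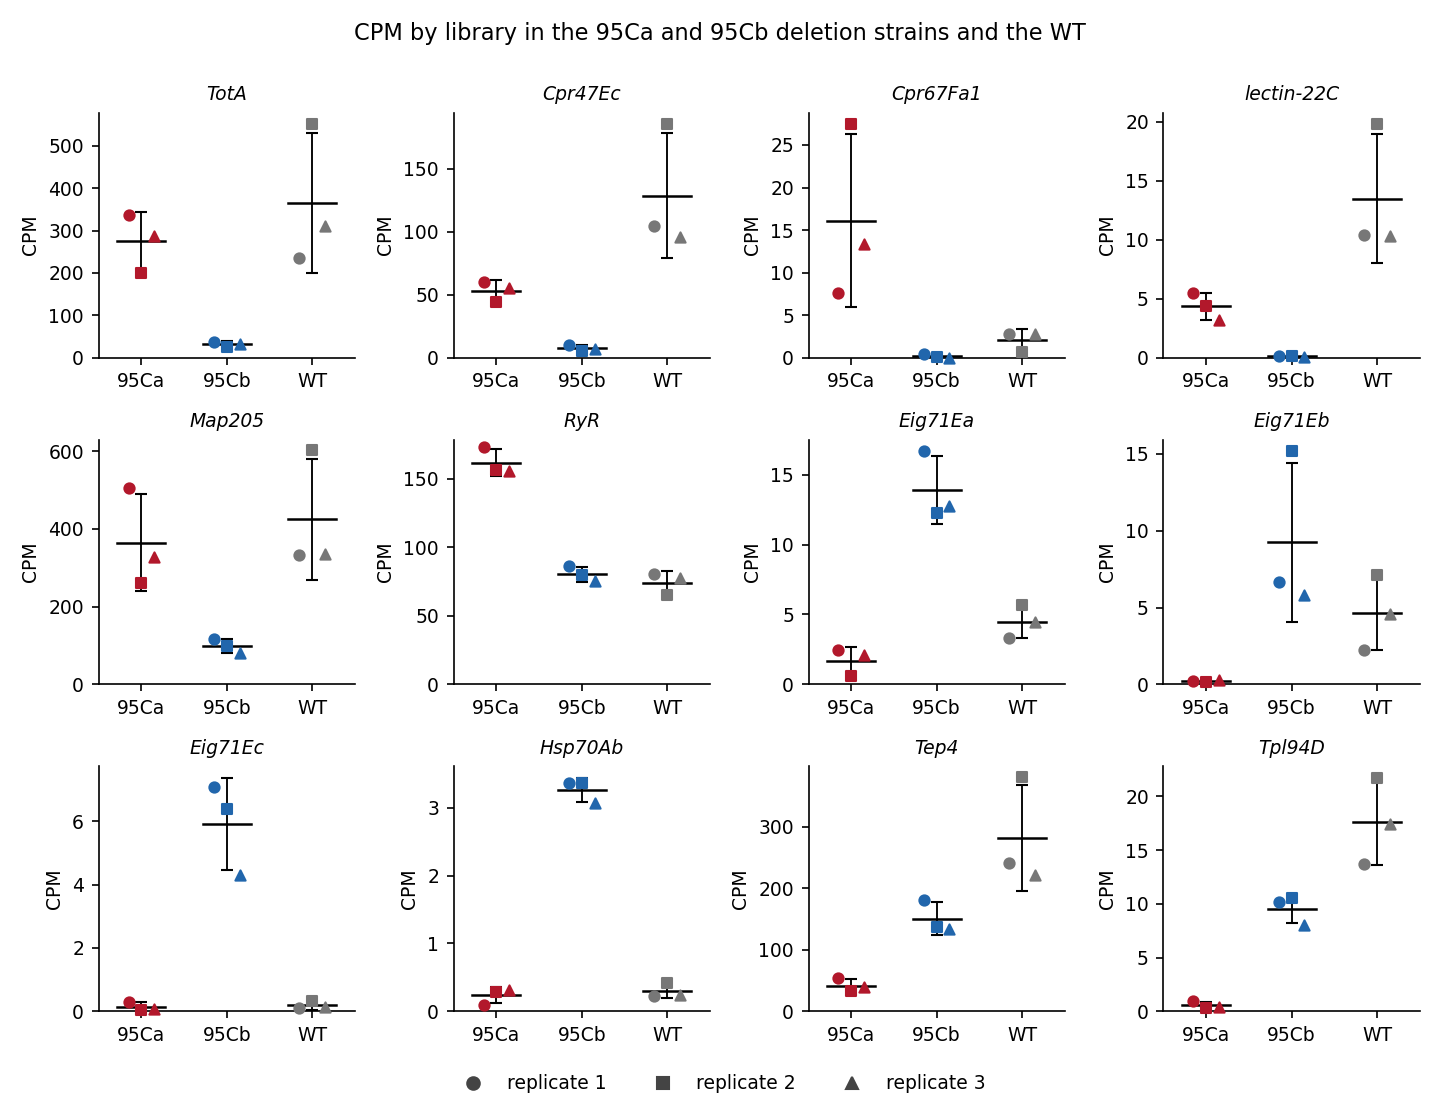
CPM of 12 DEGs in each library of the 95Ca (red) and 95Cb (blue) deletion strains and the WT (grey), with 1 panel per gene, a linear y axis from 0, horizontal bars for the means and vertical bars for the SD of 3 libraries. TotA, Cpr47Ec, lectin-22C and Map205 are low in the 95Cb deletion strain and near or above the 95Ca level in the WT, whereas Eig71Ec and Hsp70Ab are high in the 95Cb deletion strain alone of the 3 groups.

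Further genes that were higher without 95Ca encode a lectin, peptidases and enzymes. lectin-22C, a C-type lectin, had 5.52, 4.36 and 3.20 CPM in the 95Ca and 0.149, 0.10 and 0.0729 CPM in the 95Cb deletion strain. It was near 0 in every library of the latter and between 10.3 and 19.8 CPM in the WT (log2 fold change 5.35 ± 0.38, adjusted p = 0.00841 from edgeR). CG13461, CG12592, CG15597, Cpr78Cc, CG10081 and Ugt49B2 followed by size, with log2 fold changes from 5.23 down to 3.31. Ugt49B2, a UDP-glycosyltransferase, had 1.24, 1.73 and 1.12 against 0.149, 0.151 and 0.146 CPM and was the only DEG of 25 such genes tested that was higher. Cyp6a23 was the only DEG of 75 cytochrome P450 genes in edgeR, where DESeq2 called 4 higher, with 42.2, 24.2 and 28.3 against 15.2, 13.2 and 10.8 CPM (1.39, adjusted p = 0.0336). Neither passed without the library labelled 95Ca deletion, replicate 2 (adjusted p = 0.064 and 0.058).

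Of the most abundant DEGs, Map205, which encodes a microtubule-associated protein that binds Polo kinase, had 504, 262 and 329 against 117.5, 99.0 and 82.2 CPM. The WT, at 333 to 604 CPM, was again near the 95Ca deletion strain. Its log2 fold change was 1.99 ± 0.21 (SE, adjusted p = 0.0131 from edgeR). CtsK2, of the cathepsin family of cysteine proteases, had 231.5, 182 and 197.5 against 67.2, 79.6 and 71.4 CPM (1.60, adjusted p = 0.0121). CG7299 had 231, 105 and 166 against 50.2, 65.0 and 54.6 CPM (1.66, adjusted p = 0.0463). These 3 genes remained DEGs without the library labelled 95Ca deletion, replicate 2.

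RyR stood apart from these in its relation to the WT. It encodes the ryanodine receptor, the calcium release channel of the sarcoplasmic reticulum. RyR (2R, 8860364 to 8888097) had 173, 156 and 155.5 CPM in the 95Ca and 86.1, 79.5 and 75.5 CPM in the 95Cb deletion strain, and 64.9 to 80.6 CPM in the WT. The 95Ca deletion libraries were above all 6 others. The log2 fold change was 1.146 ± 0.14 (SE, adjusted p = 0.0226 from edgeR, and 0.0549 without the library labelled 95Ca deletion, replicate 2). Of the 45 DEGs higher in the 95Ca deletion strain, it was the 1 whose WT mean (74.3 CPM) lay below both strains. salt, a gene chosen after its values were seen, was also nearer to the 95Cb deletion strain in the WT, with 172, 93.3 and 113 CPM in the 95Ca, 40.5, 28.5 and 26.2 CPM in the 95Cb deletion strain and 31.7 to 74.1 CPM in the WT (log2 fold change 2.11, adjusted p = 0.0106).

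Of the remaining DEGs that were higher in the 95Ca deletion strain, 5 that encode metabolic proteins, chosen after their values were seen, were hgo (homogentisate 1,2-dioxygenase, in tyrosine breakdown; log2 fold change 2.40), Sardh (sarcosine dehydrogenase; 1.16), AsnS (asparagine synthetase; 1.12), FASN2 (a fatty acid synthase; 1.06) and aralar1 (the mitochondrial aspartate and glutamate carrier; 1.02). Without the library labelled 95Ca deletion, replicate 2, hgo was still a DEG, while Sardh, AsnS, FASN2 and aralar1 had adjusted p of 0.0552, 0.0694, 0.0797 and 0.0628, and FASN2 and aralar1 log2 fold changes of 0.95 and 0.98. AsnS had 59.3, 40.3 and 41.9 against 24.7, 22.9 and 23 CPM, with 29.8 to 53.4 CPM in the WT.

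The rest of the 45 genes had log2 fold changes between 1.2 and 3.08 and were also chosen after their values were seen. CG32241 had the highest levels of them, with 100.2, 208 and 182.5 against 34.9, 30.3 and 30.4 CPM, and 238 to 301.5 CPM in the WT. The WT was above both strains there, as in smp-30, of the regucalcin family of calcium-binding proteins, with 38.0, 35.1 and 34.5 against 15.7, 11.4 and 13.5 CPM (log2 fold change 1.55) and 52.4 to 64.9 CPM in the WT. Nepl17, a neprilysin-like metalloprotease, had 6.01, 5.23 and 4.31 against 2.08, 1.76 and 1.09 CPM (1.79). lncRNA:CR43452 was the only DEG of the 45 that does not code for protein, with 8.05, 4.79 and 6.47 against 1.29, 1.16 and 1.24 CPM (2.5 ± 0.24, adjusted p = 0.00946 from edgeR), and it was still a DEG without the library labelled 95Ca deletion, replicate 2.

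The Eig71E genes were the clearest group in the opposite direction. They form a cluster at 71E on 3L, encode small secreted peptides, and are induced in late larval and prepupal salivary glands by the steroid hormone ecdysone. Of 11 matched genes 7 were tested and 5 were DEGs, all lower in the 95Ca than in the 95Cb deletion strain, against 0.201% of all genes tested. The median of the 7 was -5.08. Eig71Eb, Eig71Ec, Eig71Ed, Eig71Ef and Eig71Eg had at most 0.447 CPM in any 95Ca deletion library. They passed the filter on low counts through the 95Cb deletion libraries. The share of 5 in 7 and the median thus hold only for genes detected there. Eig71Ec (15651479 to 15652254) had 0.298, 0.0479 and 0.0799 CPM in the 95Ca and 7.09, 6.38 and 4.30 CPM in the 95Cb deletion strain, a log2 fold change of -5.15 ± 0.48 (SE, adjusted p = 0.00946 from edgeR). Eig71Eb had 0.248, 0.192 and 0.320 against 6.69, 15.2 and 5.83 CPM (-5.08, adjusted p = 0.0131). Both were almost absent from all 3 libraries without 95Ca. Eig71Ef had 0.149, 0 and 0.0799 against 3.47, 3.67 and 2.11 CPM (-5.13, adjusted p = 0.0207). Eig71Ed had 3 counts in all in the 95Ca and 167 in the 95Cb deletion strain, a 55.3-fold difference in CPM (exact 95% interval for counting error 18.6 to 271).

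Eig71Ea had 2.44, 0.623 and 2.08 against 16.7, 12.3 and 12.8 CPM (log2 fold change -2.94, adjusted p = 0.033 from edgeR). Eig71Eg, at 0.447, 0.432 and 0.320 against 4.26, 1.86 and 1.75 CPM, did not pass (-2.52, adjusted p = 0.0718). The most abundant member, Eig71Ee, had 1604, 1124 and 1193 against 2229, 1403 and 1517 CPM, which overlapped (-0.26, adjusted p = 1). In the WT, Eig71Ec, Eig71Ed and Eig71Ef were low too, at 0 to 0.587 CPM, with the mean of Eig71Ef at 0.312 CPM against 0.0763 CPM in the 95Ca deletion strain. Eig71Ea lay between both strains, at 3.31 to 5.71 CPM, and Eig71Eb had 2.25 to 7.13 CPM, which overlapped with the 95Cb deletion strain. Without the library labelled 95Ca deletion, replicate 2, Eig71Ea, Eig71Ec, Eig71Ed and Eig71Ef were still DEGs, and Eig71Eb had an adjusted p of 0.0549.

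Regulators and other targets of ecdysone were read beside the cluster. Of 16 genes for the receptor and early response regulators, none was a DEG in edgeR and 1 was higher in DESeq2 (median -0.08). Of 7 ecdysone-induced effectors of imaginal discs neither tool called any (median -0.41). At an unadjusted p below 0.05 in edgeR stood 6 of the 16 and 5 of the 7, against 7.65% of all genes tested. With the 95Ca deletion strain lower, the libraries did not overlap in 5 of the 16 and 4 of the 7, against 9.75% of all genes tested. With it higher, they did not overlap in 2 of the 16 and 0 of the 7, against 3.41%. Hr3, a nuclear receptor of the prepupal cascade, had 0.746, 1.39 and 2.0 against 5.55, 2.31 and 4.23 CPM, without overlap, and a log2 fold change of -1.40 (adjusted p = 0.449 from edgeR). ftz-f1, which acts after it, had 21.7, 14.2 and 17.3 against 9.02, 13.7 and 11.6 CPM (0.74, adjusted p = 0.387), also without overlap. EcR, the receptor itself, overlapped (0.14, adjusted p = 1). The 7 salivary glue genes Sgs, which mark the salivary gland before pupariation, held no DEG and summed to 19952 to 29702 CPM in the 95Ca and 27134 to 28336 CPM in the 95Cb deletion strain. The 6 genes of salivary gland identity and secretion summed to 326 to 391 and 299 to 352 CPM. Both sums overlapped between the strains. The 5 new glue and intermoult genes did not, with 67.9, 98 and 90.7 CPM in the 95Ca and 52.3, 38.6 and 57.7 CPM in the 95Cb deletion strain. All 4 tested had a positive log2 fold change (median 0.91) with an unadjusted p below 0.05 in edgeR, against 7.65% of all genes tested. Their sign was opposite to that of the Eig71E genes, and neither tool called one.

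Pigment and tanning enzymes held no DEG in edgeR, but their summed level separated the strains. They turn tyrosine into dopamine and its conjugates, which darken and harden the cuticle. Of the list 11 genes were tested, and the summed level of the 12 matched genes was 1717, 1760 and 1677 CPM in the 95Ca, 3314, 3220 and 3232 CPM in the 95Cb deletion strain and 1198 to 1230 CPM in the WT. The groups did not overlap and each varied little. ple, the tyrosine hydroxylase gene, had 739, 897 and 826 against 1758, 1756 and 1768 CPM (log2 fold change -0.95 ± 0.23, adjusted p = 0.2 from edgeR). e, which encodes N-beta-alanyl-dopamine synthase, had 258, 253 and 236 against 573, 578 and 563 CPM (-1.06, adjusted p = 0.068). Beside ple and e, the groups did not overlap in Ddc (dopa decarboxylase, log2 fold change -0.62, adjusted p = 0.279) and b (aspartate 1-decarboxylase, which makes the beta-alanine that e uses), with 28.6, 55.1 and 37.1 against 121, 109 and 154 CPM (-1.5, adjusted p = 0.17). DESeq2 called 2 genes of the list lower, e (adjusted p = 4.45e-05) among them, and with library totals edgeR called e as well (adjusted p = 0.0358). Over all alternatives the adjusted p of e ran from 5.86e-08 to 1. The list as a whole was split, with a median log2 fold change of 0.02, and in 4 of the 11 the libraries did not overlap with the 95Ca deletion strain lower, against 9.75% of all genes tested.

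Single genes of immunity and stress were also lower in the 95Ca deletion strain. Tep4, a thioester-containing protein of the haemolymph, had 53.3, 32.6 and 39.1 against 181, 137 and 133 CPM, and the WT, at 222 to 381 CPM, was above both (log2 fold change -1.73 ± 0.17, adjusted p = 0.00946 from edgeR). PGRP-SB2, a peptidoglycan recognition protein, had 30.0, 27.3 and 31.3 against 135.8, 74.3 and 97.0 CPM, with the WT below both at 12.5 to 17.8 CPM (-1.64, adjusted p = 0.0306). It was the only DEG of 11 genes of its family tested. Among 11 antimicrobial peptide genes tested none was a DEG in edgeR and 2 were lower in DESeq2. Their median was 0.17, and -0.39 without the library labelled 95Ca deletion, replicate 2. The 20 matched genes summed to 43.7, 47.2 and 42.0 CPM in the 95Ca and 89.9, 52.5 and 74.7 CPM in the 95Cb deletion strain. AttD had 0.895, 0.815 and 0.959 against 2.63, 4.37 and 4.52 CPM (-1.99, adjusted p = 0.0809), and AttC 8.50, 12 and 10.2 against 7.73, 4.02 and 4.37 CPM (1.11, adjusted p = 0.276).

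Hsp70Ab, a copy of the stress-inducible chaperone Hsp70, had 0.0994, 0.288 and 0.320 CPM in the 95Ca and 3.37, 3.37 and 3.06 CPM in the 95Cb deletion strain. It was low in the WT as well, at 0.23 to 0.42 CPM, so that the 95Cb deletion strain alone was raised among the 3 groups. The log2 fold change was -3.66 ± 0.45 (SE, adjusted p = 0.0234 from edgeR, and 0.0519 without the library labelled 95Ca deletion, replicate 2). Its near-identical copies may share reads and are uncertain one by one. Hsp70Aa, Hsp70Ba, Hsp70Bb and Hsp70Bc had log2 fold changes from -3.79 to -1.94 with no overlap between the strains, and none passed (adjusted p from 0.138 to 0.39). No other of the 22 heat shock genes tested was called by edgeR, while DESeq2 called 4 genes of the list lower, Hsp70Ab among them, and the list's median was -0.21. Summed over the 24 matched genes the level was 8211, 8593 and 8688 against 9639, 10111 and 10449 CPM, without overlap, and 5540 to 7353 CPM in the WT. These sums are scaled by library totals, and their lack of overlap depends on that scaling. The TMM factors of the fit were 0.856 for the library labelled 95Ca deletion, replicate 2, and 1.148 for replicate 1 of the 95Cb deletion strain. In 11 of the 22 the libraries did not overlap with the 95Ca deletion strain lower, against 9.75% of all genes tested.

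Of the other genes lower in the 95Ca deletion strain, Tpl94D encodes a transition protein of spermatid chromatin. It had 0.944, 0.288 and 0.399 CPM in the 95Ca, 10.2, 10.5 and 8.02 CPM in the 95Cb deletion strain and 13.7 to 21.7 CPM in the WT (log2 fold change -4.0 ± 0.36, adjusted p = 0.00946 from edgeR). The WT was above both strains. The 23 matched testis and male germline genes summed to 187 to 279 and 223 to 273 CPM, and Y-linked genes to 8.49 to 27.6 and 15 to 20.2 CPM, both overlapping. CG31683, with 0.895, 0.288 and 0.240 against 12.7, 11.6 and 9.11 CPM, was below the WT in both strains as well (17.5 to 30.9 CPM, log2 fold change -4.38, adjusted p = 0.00946). CG42713 and CG13026, at 0.0497, 0.240 and 0 against 6.99, 2.71 and 5.03 CPM and at 0.0497, 0.192 and 0 against 3.07, 1.86 and 3.06 CPM, were near 0 in the WT too. CG13840 had 1 count against 55, a 54.7-fold difference in CPM (exact 95% interval for counting error 9.41 to 2199).

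The most abundant of the 25 genes were CG7924, CG31789, Zip99C, Tep4 and PGRP-SB2. CG7924 had 64.3, 77.7 and 62.3 against 414, 195 and 283 CPM (log2 fold change -1.96, adjusted p = 0.0433 from edgeR). CG31789 had 65.0, 57.3 and 57.1 against 232, 153 and 174 CPM (-1.49, adjusted p = 0.0176). Zip99C, a ZIP-family metal transporter, had 76.1, 73.6 and 75.3 against 179, 162 and 162 CPM (-1.02, adjusted p = 0.0427), with the WT between at 110.5 to 147 CPM. Spn100A, a serpin, had 33.8, 30.5 and 29.1 against 135.5, 71.5 and 85.6 CPM (-1.49), and was low in the WT too, at 23.4 to 34.9 CPM. CG2070 and CG15553, with log2 fold changes of -2.12 and -2.25, also had WT levels near the 95Ca deletion strain. Npc2d, of the NPC2 family of sterol-binding proteins, had 3.33, 3.60 and 3.19 against 12.4, 9.74 and 8.16 CPM (-1.42), far below the WT at 72.9 to 161.5 CPM. Of the 5 most abundant genes, only Tep4 was also a DEG without the library labelled 95Ca deletion, replicate 2.

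The DEGs were counted by chromosome arm. Arm 3R, which carries both U1 genes, held 20 of the 45 genes that were higher (44.4%) and 8 of the 25 that were lower (32%), against 24.6% of genes tested. Of the 25, 11 (44%) were on 3L, against 20% of genes tested, 5 of them at 71E. The X chromosome held 2 of the 70, against 15.9%. None lay within 100 kb of 95Ca, and 1 within 1000 kb. In 6 places DEGs of the same direction lay within 10 kb of each other, 15 genes in all: the Eig71E genes, Cpr67Fa1 and Cpr67Fa2, CG10073 and CG10081, CG31343 and CG31233, CG7924 and CG34244, and CG13026 and PGRP-SB2. In each of the 5 pairs no other tested gene lay in the span. Genes with 1 or 2 introns made up 44.4% of the higher and 68% of the lower DEGs, against 35.8% of genes tested, and the median exonic length was 1533 and 1079 bp against 1839 bp.

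The WT served to place the 70 genes. Its mean lay nearer, on a log2 scale of CPM + 0.1, to the 95Ca than to the 95Cb deletion strain in 43 of the 45 genes that were higher in the former, above both strains in 33, between them in 11 and below both in 1. Among the 25 that were lower, it lay nearer to the 95Ca deletion strain in 17 and to the 95Cb deletion strain in 8, above both in 6, between in 13 and below both in 6. These are counts of levels, not tests.

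Muscle genes stood at higher levels in the 95Ca deletion strain, with none called by edgeR. All 18 matched genes were tested, 17 had a positive log2 fold change and the median was 0.84. Mhc, the muscle myosin heavy chain, had 9549, 11379 and 10867 against 3257, 4522 and 4457 CPM (log2 fold change 1.51 ± 0.31, adjusted p = 0.123 from edgeR), and Act57B, a muscle actin, 7243, 8133 and 7117 against 4329, 3663 and 3474 CPM (1.13, adjusted p = 0.151). In 7 of the 18 the libraries did not overlap with the 95Ca deletion strain higher, against 3.41% of all genes tested. The summed level of the list was 52022, 49998 and 53113 CPM in the 95Ca, 29504, 31158 and 29333 CPM in the 95Cb deletion strain and 30287 to 35009 CPM in the WT. Without the library labelled 95Ca deletion, replicate 2, the median was 0.81. DESeq2 called 4 of the 18, Mhc and Act57B among them.

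Summed levels of lists of other tissues overlapped between the strains. Larval serum and fat body genes summed to 94938 to 119705 CPM in the 95Ca and 76409 to 117424 CPM in the 95Cb deletion strain, midgut markers to 531 to 780 and 760 to 895 CPM, and neuron and glia genes to 347 to 432 and 356 to 442 CPM. None of these lists held a DEG in edgeR or DESeq2. All 8 midgut markers tested had a negative log2 fold change, with a median of -0.26. In 3 of them the libraries did not overlap with the 95Ca deletion strain lower, against 9.75% of all genes tested. Of 8 fat body genes tested 6 were positive and 2 negative, with a median of 0.59. In 2 the libraries did not overlap with the 95Ca deletion strain higher, against 3.41% of all genes tested. The median of neuron and glia genes was 0.05. Malpighian tubule genes summed to 166 to 207 and 124 to 176 CPM. Of 6 tested 5 were positive and 1 negative, with a median of 0.61. In 3 the libraries did not overlap with the 95Ca deletion strain higher, against 3.41% of all genes tested. None was a DEG in edgeR, and DESeq2 called 1 higher. Of 28 Jonah and trypsin proteases tested, the digestive enzymes of the midgut, 21 were negative and 7 positive. Their median was -0.35, and -1.06 without the library labelled 95Ca deletion, replicate 2. In 6 the libraries did not overlap with the 95Ca deletion strain lower, against 9.75% of all genes tested. With all 6 libraries edgeR called none and DESeq2 1 lower. The list summed to 1046, 8172 and 4194 against 3124, 7147 and 8827 CPM. Replicate 1 was lowest in both strains, as for 7SK. Ribosomal protein genes followed it as well, with 45029 and 45967 CPM in replicate 1 and 63533 to 75861 CPM in the others, and a median of 0.06, which was -0.33 without the library labelled 95Ca deletion, replicate 2.

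**Figure D4:**
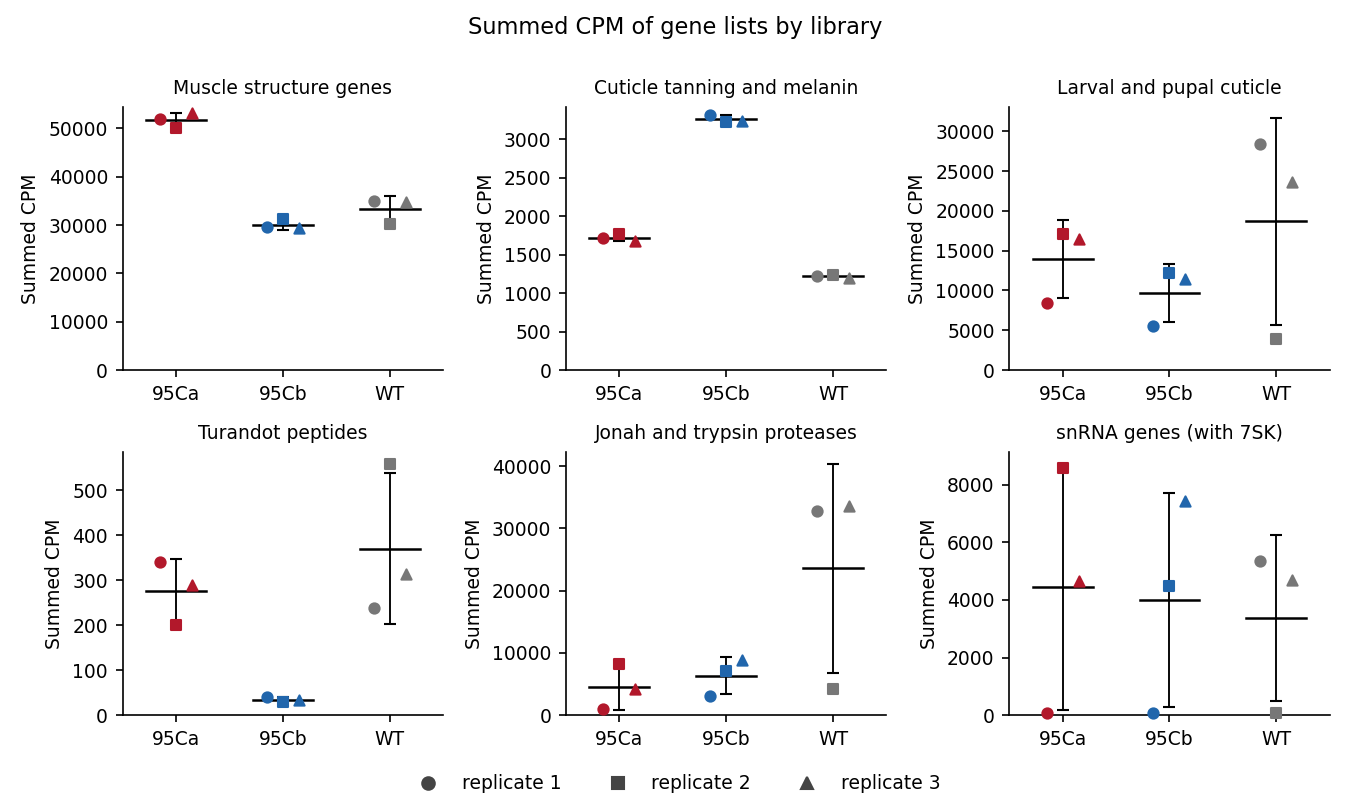
Summed CPM of 6 gene lists in each library of the 95Ca (red) and 95Cb (blue) deletion strains and the WT (grey), on linear y axes from 0, with means and SD of 3 libraries. Muscle and tanning genes separate the strains in all replicates (49998 CPM or more against 31158 or less, and 1760 or less against 3220 or more), whereas proteases and snRNA genes are lowest in replicate 1 of both strains.

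Genes for the machinery that U1 works with were not called by edgeR or DESeq2. None of the 9 matched U1 snRNP and Sm core genes was a DEG (median log2 fold change 0.16), nor was any of 13 SR protein and kinase genes (0.01), 15 hnRNPs and splicing regulators (0.04), 15 cleavage and polyadenylation factors (0.05), 14 SAGA subunits (-0.01) or 11 elongation factors of RNA polymerase II (-0.00). snRNP-U1-70K, the U1-specific 70K protein, had 38.9, 80.3 and 81.6 against 32.7, 74.7 and 69.5 CPM, and overlapped (0.33 ± 0.46, adjusted p = 1 from edgeR). mod(mdg4) and lola, classical trans-spliced genes, had log2 fold changes of -0.16 and 0.03 and were not called. Of 31 matched snRNA genes, a list that holds 7SK beside the spliceosomal snRNAs, 6 passed the filter on low counts and none was a DEG. Values of single genes do not show whether splicing differed, which counts per gene do not measure.

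The comparison was repeated without the library labelled 95Ca deletion, replicate 2. Of 12666 genes tested 32 were then DEGs (0.253%), 18 higher in the 95Ca deletion strain (0.142%) and 14 lower (0.111%). Of these, 17 and 12 were among the 70, and all 70 kept their direction. The 3 that were new are lncRNA:CR45284 (log2 fold change 3.30, adjusted p = 0.0332 from edgeR), CG31904 (-4.45, adjusted p = 0.0328) and the digestive protease Jon65Aii (-1.75, adjusted p = 0.0435). CG31904 shows the weight of that library. It had 0.248 and 0.240 CPM in replicates 1 and 3 of the 95Ca deletion strain but 1.73 CPM in replicate 2, against 6.69, 6.68 and 3.43 CPM in the 95Cb deletion strain. The genes with the smallest p were TotA and CG13461 in the repeat (adjusted p = 0.0103 for both), and TotA, lectin-22C and Cpr47Ec with all 6 libraries.

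**Figure D5:**
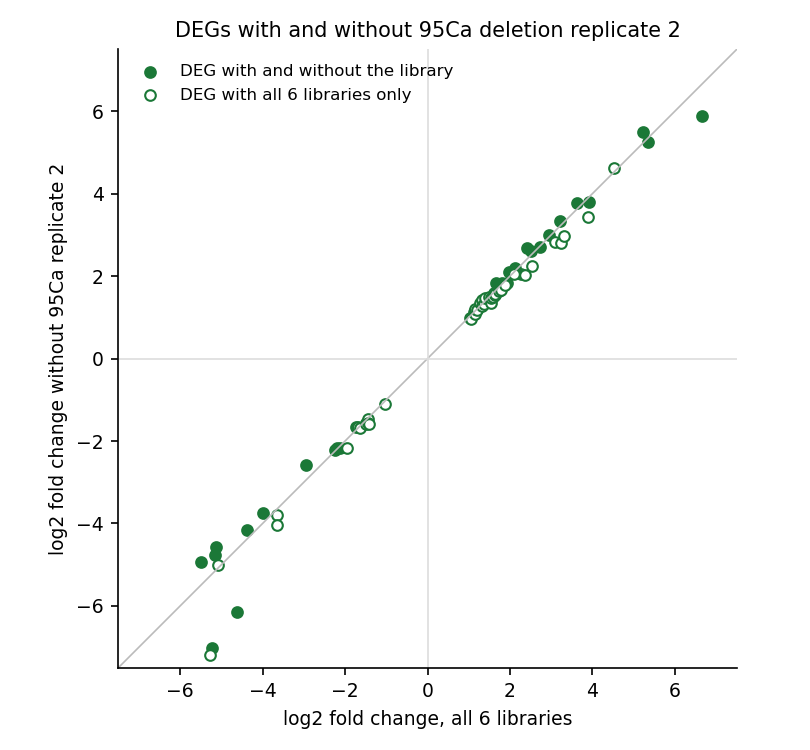
Log2 fold changes of the 70 DEGs with all 6 libraries (x axis) against those without the library labelled 95Ca deletion, replicate 2 (y axis), with the line of equality. Filled points are the 29 genes that are DEGs in both, open points those called with all 6 libraries alone, and every point lies in the quadrant of its own sign.

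The gene with the largest fold change of all genes tested was no DEG. 28SrRNA-Psi:CR45860, a fragment of ribosomal RNA, had 2.44, 7.43 and 1659 CPM in the 95Ca and 1.88, 2.21 and 8.82 CPM in the 95Cb deletion strain, a log2 fold change of 7.16 ± 2.5 (SE, adjusted p = 0.468 from edgeR) that rests on replicate 3 alone. It was named after its values were seen.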

How the data were processed

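Total RNA of whole third-instar larvae was depleted of ribosomal RNA and sequenced from strand-specific libraries. The study's read statistics call the sequencing mRNA-seq, and its methods name no depletion step. The submitters' processing notes name cutadapt 1.15, Trimmomatic 0.39 and dm6, and the study's methods describe alignment with HISAT2 and counting with featureCounts. The table deposited by the authors holds raw counts of 17562 genes per library. Its strand and multi-mapping settings are not given in the sources used here. Symbols and positions came from an annotation in which 17479 of the genes were found, 99.7% of them at the same coordinates.

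Counts of the 6 libraries (12518047 to 20858245 each) were fitted with edgeR 4.0.16 (quasi-likelihood test, TMM factors, genes with enough counts by filterByExpr with a minimum of 10 and a total of 15) in R 4.3.3, and p-values were adjusted by Benjamini-Hochberg over all 12422 genes tested. A gene was a DEG at a log2 fold change beyond 1 in either direction with an adjusted p under 0.05. CPM are counts per 1000000 of the library total. The fit was tested on simulated data. Within a strain no library was a duplicate of another (chi-square per gene of at least 37.0), and pairs across the strains were not checked. Values of 0 and counting intervals cover counting error only. Alternatives were DESeq2 1.42.0, other scalings and filters, glmTreat, a replicate block, all 18 libraries in the fit, and each library left out. DESeq2 without the library labelled 95Ca deletion, replicate 2, was added after seeing the data.

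Named genes were the U1 genes, annotated genes within 20 kb of both loci, the 10 largest and 10 smallest log2 fold changes among DEGs whose libraries did not overlap and with a mean of at least 1 CPM in the higher strain, the 5 most abundant DEGs in each direction, up to 4 DEGs per list (without a DEG, the 2 most abundant members), mod(mdg4) and lola. Others, among them Eig71Ea, Eig71Eg, Lcp3, AttC, AttD, Hr3, ftz-f1, EcR, b, Ddc, salt, metabolic enzymes, the other Hsp70 copies and the genes of the repeat, were chosen after their values were seen. The comparison and the lists were chosen with earlier results of these data known.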

Additional observations from a re-analysis of the deposited data

How the results depend on the processing

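The 70 DEGs (45 higher and 25 lower in the 95Ca deletion strain) became 216 (135 and 81) in DESeq2, 268 (146 and 122) in DESeq2 without the library labelled 95Ca deletion, replicate 2, an alternative chosen after seeing the data, 158 (95 and 63) with all 18 libraries in the fit, and 12 (6 and 6) with glmTreat, which tests against a log2 fold change of 1. Library totals in place of TMM factors gave 26 higher genes. RLE size factors, no filter and a CPM of at least 1 in 3 libraries gave 64, 75 and 69 DEGs. Leaving out 1 library, or the same replicate of both strains, gave 0 to 47 DEGs, 0 to 35 higher and 0 to 14 lower. Of these, 0 were called by edgeR without replicate 2 of both strains (1651 genes at an unadjusted p below 0.05) or without replicate 3 of both (347 genes). The cause was not tested, beyond the smaller number of libraries. Of 35 named DEGs, 35 were called in DESeq2, 32 with library totals, 30 with all 18 libraries, 11 with glmTreat and 20 without the library labelled 95Ca deletion, replicate 2. All 35 kept their direction under every alternative that gave them a value.

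The replicate numbers paired the libraries in part only, with the highest correlation of all pairs between the strains for replicate 1. Across 12422 genes the deviations from the strain means correlated at 0.61, -0.12 and 0.33 for replicates 1, 2 and 3, and replicate 2 of the 95Ca deletion strain correlated best with replicate 3 of the 95Cb deletion strain (0.58). A replicate block in the fit gave 29 DEGs, 20 higher and 9 lower, of which 12 and 9 were among the 70, and 14 of the 35 named DEGs were called. The block lowered the fit's biological coefficient of variation, its estimate of the spread between libraries, from 0.307 to 0.246. At this depth and number of libraries the U1 genes, with 0 to 24 counts per library, could not be tested.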
